A study of Rattus norvegicus with 65 samples.

Results

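The 10 genes described here encode the endoplasmic reticulum chaperones and associated factors that the unfolded protein response controls: Hspa5, Hsp90b1, Hyou1, Dnajb9, Sdf2l1, Pdia4, Calr, Manf, Herpud1 and Xbp1. They were chosen by symbol and measured through every probe set that the platform's annotation gives to 1 of these symbols alone. That gave 11 probe sets for the 10 genes, out of 14217 genes with such a probe set. Hyou1 has 2 probe sets. The brighter one was used, and the other lay below the median of the table in every group, at group means of 4.54 to 5.04, and was not tested. All 10 genes passed the filter on low values.

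Liver RNA was measured on 65 arrays, 1 per rat, from male Sprague-Dawley rats of 6 weeks of age that received 1 of 10 hepatocarcinogens or served as controls. Values are log2 signals. The genotoxic training set held 2-AAF, 3MeDAB, DEN and a control (20 arrays), the nongenotoxic training set held 1,4-Dioxane, Clofibrate, DL-Ethionine and a control (21 arrays), and a test set held DCP, ME, SN and Urethane with no control (24 arrays). Each compound had a short and a long group, labelled 3 and 72 h, and each of the 22 groups had 3 rats except DEN short, which had 2. The labels state 1 dose for the short and 3 doses for the long test groups and disagree with the protocol text on the times, so the words short and long are used. The controls are called untreated in one label field and vc in another, and they have no time of their own. The 3 sets appear to have been normalized apart, so training groups were compared with the control of their own set and test groups among themselves. Replicates are named as biological in the titles.

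The unfolded protein response is the signalling program by which a cell adjusts the folding capacity of its endoplasmic reticulum (ER). Misfolded proteins activate 3 sensors in the ER membrane, IRE1 (encoded by Ern1), PERK (Eif2ak3) and ATF6. IRE1 splices Xbp1 mRNA so that it encodes an active transcription factor, ATF6 is cut to release another, and PERK slows translation and raises ATF4, which induces Ddit3, Atf3, Chac1 and Trib3. XBP1 and ATF6 induce chaperones through short promoter elements. Hepatocytes secrete most plasma proteins and carry an extensive ER, so the liver expresses these chaperones at rest. The arrays report total Xbp1 signal and do not separate its spliced form.

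Promoter sequences are given as a description of the members, and no test related them to the values. Of the 10 genes, 9 matched RefSeq's promoter table of rat build GRCr8, which spans 250 bases before and 50 after each start, and Manf did not. Both strands of each window were searched for the ER stress response element (CCAAT and CCACG with any 9 bases between them), its second form (ATTGG and CCACG with any 1 base between them), the element TGACGTGG known to bind XBP1 and ATF6, and CCACG, which all 3 of these contain on 1 strand. The first element was found in 4 members, Hspa5, Xbp1, Hsp90b1 and Calr, and in 0.0657% of 33469 windows. The second form was found in Herpud1 and Hyou1 and in 0.0508% of windows. TGACGTGG was found in Hyou1, where it overlaps a copy of the second form, and in 0.595% of windows. CCACG was present in all 9 matched members and in 31.6% of windows. Hsp90b1 held 2 copies of the first element and Hyou1 2 of the second form. The 250 bases before the start are shown for 4 members, as examples of the first element (Hspa5 and Calr), of the second form (Herpud1) and of a window with neither (Sdf2l1). In DL-Ethionine long the differences of members with either form ran from -0.03 to -1.28 and those of the 3 matched members with neither from -0.74 to -1.82, so the ranges overlapped. Capitals mark the element in Hspa5 (chr3:38452766-38453015, plus strand), Calr (chr19:40213117-40213366, plus strand, element on the opposite strand) and Herpud1 (chr19:10614708-10614957, minus strand), and in Sdf2l1 (chr11:97376628-97376877, plus strand) the copy of CCACG on the opposite strand. A match of letters describes the window and does not show a bound site.
Hspa5: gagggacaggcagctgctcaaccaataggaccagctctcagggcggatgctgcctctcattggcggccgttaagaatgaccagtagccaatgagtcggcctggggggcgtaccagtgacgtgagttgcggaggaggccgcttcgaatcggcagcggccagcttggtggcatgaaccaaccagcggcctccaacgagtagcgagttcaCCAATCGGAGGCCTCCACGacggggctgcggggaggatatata
Calr: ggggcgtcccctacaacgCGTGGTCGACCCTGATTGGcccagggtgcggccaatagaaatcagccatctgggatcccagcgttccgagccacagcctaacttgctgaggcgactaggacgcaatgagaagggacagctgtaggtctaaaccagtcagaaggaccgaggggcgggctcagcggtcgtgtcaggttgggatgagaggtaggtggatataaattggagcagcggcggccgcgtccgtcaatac
Herpud1: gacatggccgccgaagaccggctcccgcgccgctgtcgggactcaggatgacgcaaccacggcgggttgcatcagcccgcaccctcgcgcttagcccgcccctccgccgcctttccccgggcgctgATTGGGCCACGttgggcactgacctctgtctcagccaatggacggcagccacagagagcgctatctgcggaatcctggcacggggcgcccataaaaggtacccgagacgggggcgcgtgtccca
Sdf2l1: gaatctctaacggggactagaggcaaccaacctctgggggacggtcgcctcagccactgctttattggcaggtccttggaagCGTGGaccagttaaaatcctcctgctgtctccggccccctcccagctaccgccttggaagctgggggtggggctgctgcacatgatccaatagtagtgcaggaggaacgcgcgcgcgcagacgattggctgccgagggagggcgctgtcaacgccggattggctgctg

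Between the 12 treated training groups and their controls, 120 member tests gave 6 higher and 21 lower calls, and 93 did not pass. A call is a Benjamini-Hochberg adjusted p under 0.05 from limma, adjusted over all 10675 genes of the comparison, and values are log2 differences ± SE. Among the 12 comparisons, 0.0656% to 36.9% of all genes were called higher and 0.0749% to 23.5% lower. A share of all genes pooled over them is not given here. DL-Ethionine long held 8 of the 21 lower calls, and it also had the largest share of all genes called lower, 23.5%. The 6 comparisons of a set share 1 control group, so its rats enter all of them. The groups are bulk liver, in which fewer cells of a type and less RNA per cell cannot be told apart. The labels' tissue fitted its markers, since 9 of 9 hepatocyte markers lay above the median of the table in every group. Markers of plasma and B cells, which also carry much ER, lay near background, with at most 2 of 6 above that median, as did pancreas acinar markers, with at most 2 of 9. Their mean levels per rat still differed from control without overlap in some groups. Acinar markers had 5.27 to 5.36 in DL-Ethionine long against 5.85 to 5.91. In 3MeDAB long they had 5.41 to 5.46 and in DEN long 5.49 to 5.59, against 5.86 to 5.91. Plasma and B cell markers had 5.34 to 5.59 in 3MeDAB long against 5.60 to 5.71. The part of these levels was not tested.

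**Figure D1:**
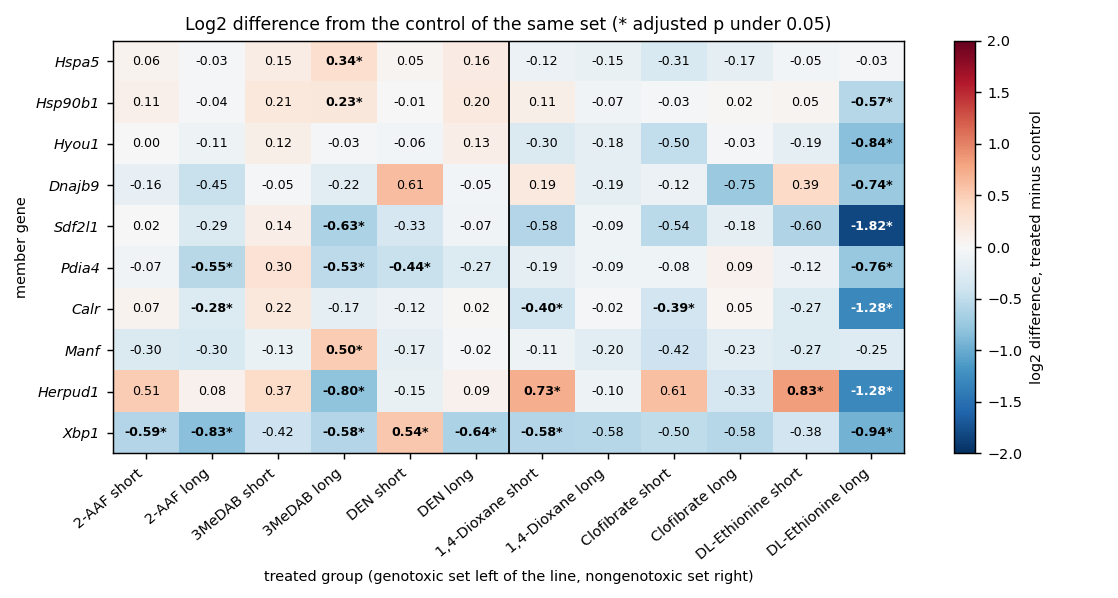
Log2 difference of each member (rows) in each treated training group (columns) from the control of the same set, with an asterisk where the limma adjusted p was under 0.05. DL-Ethionine long, where 23.5% of all genes were called lower, holds 8 of the 21 lower calls, down to -1.82 for Sdf2l1. 3MeDAB long, where 36.9% of all genes were called higher and 17.7% lower, holds calls in both directions.

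In DL-Ethionine long most members were lower than in the controls, and Hspa5 and Manf were not called. In this group 8 of 10 members fell, and 23.5% of all genes tested were called lower and 30.7% higher. The members' median was -0.80, and that of all genes was 0.04. No rat of the treated group overlapped a control rat for any of the 8. The share of all genes without such overlap is not given here, so this describes the 8 calls and adds no support to them. These 8 calls kept their side of the threshold in every alternative and with each rat left out.

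The chaperones fell unequally. Sdf2l1, an ER protein that works with HSPA5 and its J-domain partners, read 9.14, 9.22 and 8.85 against 10.96, 10.76 and 10.95 in the controls. The difference of -1.82 ± 0.19 (limma adjusted p = 1.23e-09) was the lowest of any member in any training group. Calr, the lectin chaperone calreticulin, which binds glycoproteins and calcium, read 10.31, 10.35 and 10.34 against 11.49, 11.55 and 11.81. It fell by 1.28 ± 0.10 (limma adjusted p = 4.97e-12), and the next lowest training group for Calr stood at -0.40. Hyou1, a large HSP70-like chaperone that exchanges the nucleotide of HSPA5, fell by 0.84 ± 0.15. Hsp90b1, the HSP90 of the ER (GRP94), fell by 0.57 ± 0.10. Dnajb9, a J-domain cochaperone of HSPA5 (ERdj4), fell by 0.74 ± 0.20. Pdia4, a disulfide isomerase that forms and rearranges disulfide bonds, fell by 0.76 ± 0.11, from 11.68, 11.93 and 11.94 in the controls to 10.95, 11.17 and 11.15.

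Hspa5, the HSP70 of the ER (BiP), did not pass. Its signal was 12.73, 12.89 and 13.01 in DL-Ethionine long and 12.73, 12.97 and 13.02 in the controls, a difference of -0.03 ± 0.10 with overlapping groups. Over the 12 training groups Hspa5 stayed between -0.31 and 0.34. Manf, a small secreted ER protein that is released on calcium loss, stood at -0.25 ± 0.14 and did not pass either. Its control replicate 1 was low, at 11.53 against 11.89 and 12.03, and without that rat the difference was -0.40 (limma adjusted p = 0.0245).

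Herpud1 and Xbp1 fell as well. Herpud1, a membrane protein that helps assemble the ER's degradation complex, read 10.31, 10.64 and 10.73 against 12.08, 11.69 and 11.77 in the controls, a fall of 1.28 ± 0.22. Xbp1 read 11.67, 12.00 and 11.84 against 12.36, 12.93 and 13.03, and fell by 0.94 ± 0.17 (limma adjusted p = 2.78e-05).

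**Figure D2:**
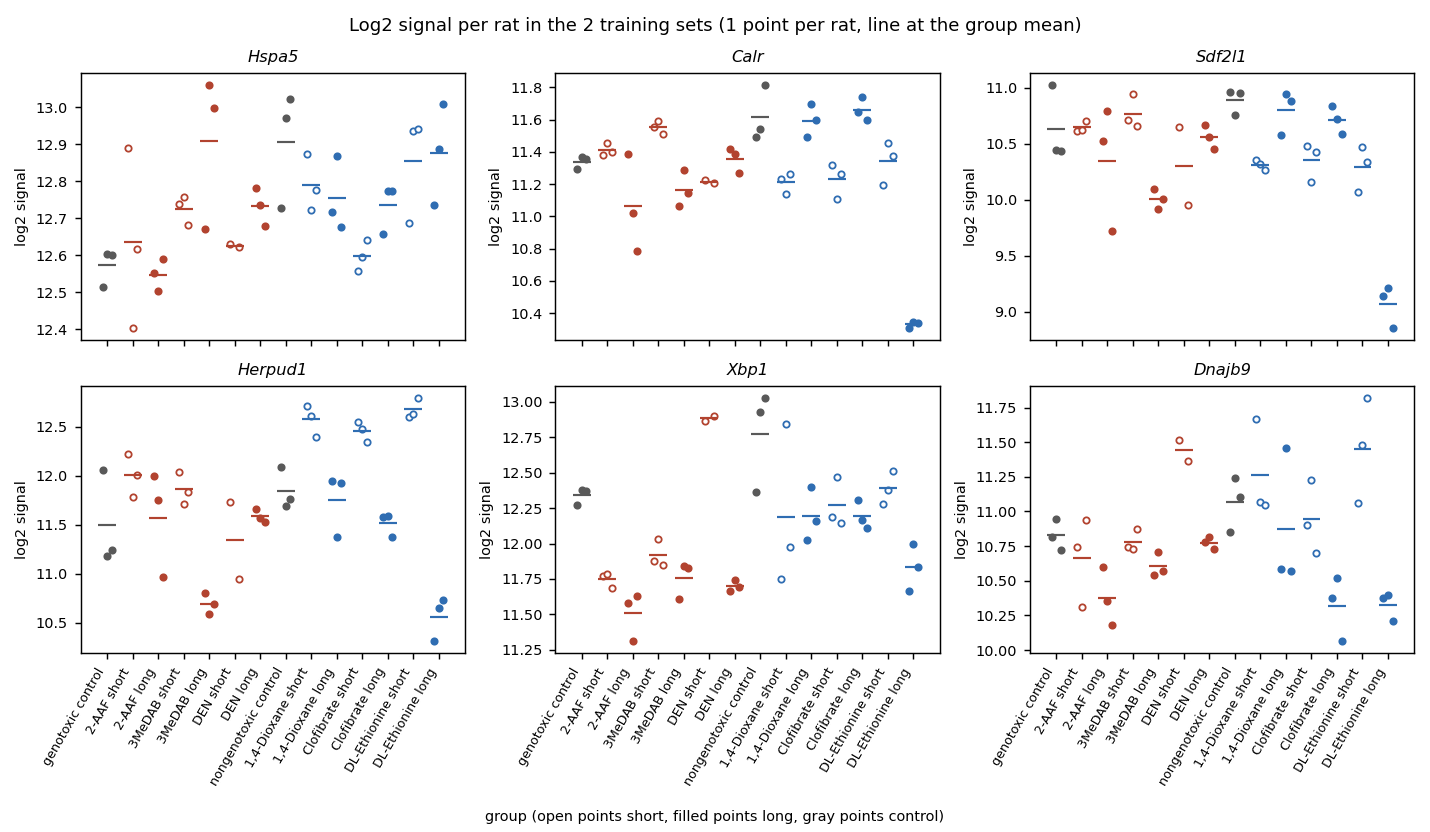
Log2 signal of 6 members in each rat of both training sets, by group (1 point per rat, line at the group mean, genotoxic set in red and nongenotoxic set in blue). In DL-Ethionine long Calr and Sdf2l1 lie below every other training rat, from 10.31 to 10.35 and from 8.85 to 9.22, whereas Hspa5 lies within its control range.

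The falls were also present against the other long compounds of the set, a comparison that uses no control rat and was added after the values were seen. Against 1,4-Dioxane long and Clofibrate long together, 7 of 10 members were lower in DL-Ethionine long and 0 higher, and 26.6% of all genes were called lower and 35.5% higher. At an unadjusted p under 0.05 the limma fit also gave 7 members in all, and the share of all genes at that threshold is not given here. Sdf2l1 differed by -1.69 ± 0.16, Calr by -1.30 ± 0.09 and Herpud1 by -1.07 ± 0.19. Xbp1 was lower, at -0.36 ± 0.15 (limma adjusted p = 0.0362), and that call was lost without 1,4-Dioxane long replicate 2, Clofibrate long replicate 1 or DL-Ethionine long replicate 1 or 3 (up to 0.177). Dnajb9 stood at -0.27 ± 0.17 and did not pass, since it was also low in Clofibrate long, at 10.38, 10.52 and 10.07.

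Other genes of the pathway did not all go down in this group. Of 11 tested genes of the PERK and ATF4 branch, 8 rose and 1 fell, with a median of 1.32. Atf3, a stress-induced transcription factor, rose by 4.16. Chac1, a glutathione-degrading enzyme, rose by 2.55, and Ddit3, the transcription factor CHOP, rose by 2.08. Nupr1, a stress-induced nuclear protein, fell by 1.60. Of 28 ER folding cofactors, 15 fell and 5 rose. Fkbp11, a prolyl isomerase, fell by 2.97, Ero1b, an oxidase that recharges disulfide isomerases, by 1.23, and the disulfide isomerase Pdia5 by 1.18. Of 19 genes of ER associated degradation, 8 fell and 5 rose, and Sel1l, the scaffold of the HRD1 ligase, fell by 2.43. Translocation genes divided into 11 lower and 7 higher of 21, N-glycosylation genes into 7 and 2 of 16, and ER to Golgi transport genes into 9 and 1 of 21. Of 11 cytosolic heat shock genes, a comparison list outside the ER, 7 rose and 2 fell, with a median of 0.71.

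Markers of other cells moved with these falls. All 8 macrophage markers tested rose in DL-Ethionine long, with a median of 1.56, and their mean level per rat ran from 10.86 to 11.27 against 9.44 to 9.75 in the controls. Of 5 endothelial markers 4 rose, with mean levels of 9.38 to 9.44 against 8.55 to 8.84. Of 10 stellate and fibroblast markers 2 rose and 1 fell, with mean levels of 7.85 to 7.91 against 7.54 to 7.79. Of 7 leukocyte markers 4 rose and 2 fell, and the groups' mean levels overlapped. Of 9 hepatocyte markers 3 fell, with mean levels of 13.69 to 13.76 against 13.97 to 14.01. The part of these markers in the members' falls was not tested. The 3' minus 5' signal of the Gapdh control probe sets, a sign of RNA quality, was 0.689 ± 0.152 in DL-Ethionine long and 0.680 ± 0.207 in the controls (SD, n = 3 each).

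In 3MeDAB long members were called in both directions. Of the 10, 3 rose and 4 fell, in a group where 36.9% of all genes were called higher and 17.7% lower. The 3 higher calls were thus no more frequent than among all genes. The members' median was -0.20, and that of all genes was 0.14. Normalizing all arrays together by quantiles moved the median of all genes by -0.10 in this comparison.

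The genes that rose were chaperones and Manf. Manf read 12.01, 12.23 and 12.23 against 11.57, 11.65 and 11.74 in the controls, a rise of 0.50 ± 0.14 (limma adjusted p = 0.0027) with no overlap. It was the one training group in which Manf stood above its control. Hspa5 read 12.67, 13.06 and 13.00 against 12.51, 12.60 and 12.60, and rose by 0.34 ± 0.10 (limma adjusted p = 0.00639). Without 3MeDAB long replicate 2 the Hspa5 call was lost (0.0553). Hsp90b1 rose by 0.23 ± 0.10 (limma adjusted p = 0.0492) with overlapping rats, and that call was lost without 3MeDAB long replicate 2 or 3 or control replicate 1 or 2 (up to 0.210).

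The genes that fell were Herpud1, Sdf2l1, Xbp1 and Pdia4. Herpud1 read 10.80, 10.59 and 10.69 against 12.06, 11.18 and 11.24, and fell by 0.80 ± 0.22. Control replicate 1 was the high rat of its group for Herpud1, and the call held without it. Sdf2l1 read 10.10, 9.91 and 10.01 against 11.02, 10.44 and 10.43, a fall of 0.63 ± 0.19 whose call was lost without control replicate 1 (limma adjusted p = 0.0698). Xbp1 fell by 0.58 ± 0.17 and Pdia4 by 0.53 ± 0.11.

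Against the other long genotoxic compounds, 2-AAF and DEN together, a comparison added after the values were seen, 36.6% of all genes were called higher and 15.2% lower, and 2 members were called each way. Manf was higher in 3MeDAB long by 0.66 ± 0.12 and Hspa5 by 0.27 ± 0.09. Herpud1 was lower, at -0.89 ± 0.19, and so was Sdf2l1, at -0.45 ± 0.16. The Hspa5 call was lost without 3MeDAB long replicate 2 or 3 (up to 0.121), and the Sdf2l1 call without 2-AAF long replicate 2 or 3MeDAB long replicate 2 or 3 (up to 0.0895).

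The other ER lists had more higher than lower calls in the same livers, where 36.9% of all genes were called higher and 17.7% lower. Of 28 folding cofactors 14 rose and 5 fell, of 21 translocation genes 15 rose and 1 fell, and of 21 ER to Golgi genes 13 rose and 1 fell. Kdelr3, a receptor that returns ER proteins from the Golgi, rose by 2.43, and Sec13, a coat protein of transport vesicles, by 1.46. Of 16 N-glycosylation genes 9 rose and 2 fell, and of 19 genes of ER associated degradation 6 rose and 4 fell. The PERK and ATF4 branch had 5 higher and 1 lower of 11, with Atf3 at 4.73, Ddit3 at 2.31 and Trib3 at 1.59. Eif2ak3, the sensor PERK itself, rose by 0.91, and the sensor Atf6 fell by 0.62. Fkbp11, which fell in DL-Ethionine long, rose here by 1.57, whereas Sel1l fell in both, here by 1.18. Of 8 macrophage markers 6 rose, and their mean level per rat ran from 10.44 to 10.83 against 9.95 to 10.18 in the controls. Hepatocyte markers had mean levels of 13.51 to 13.53 against 13.82 to 13.87, with 4 of 9 lower and 2 higher. Leukocyte markers had 7.51 to 7.79 against 7.23 to 7.36, with 2 of 7 higher and 1 lower, and stellate and fibroblast markers 7.89 to 8.31 against 7.66 to 7.75, with 4 of 10 higher and 2 lower. The part of these markers in the members' changes was not tested. The Gapdh 3' minus 5' value was 0.339 ± 0.086 in 3MeDAB long and 0.510 ± 0.107 in its control (SD, n = 3 each), with no overlap, and its part was not tested.

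**Figure D3:**
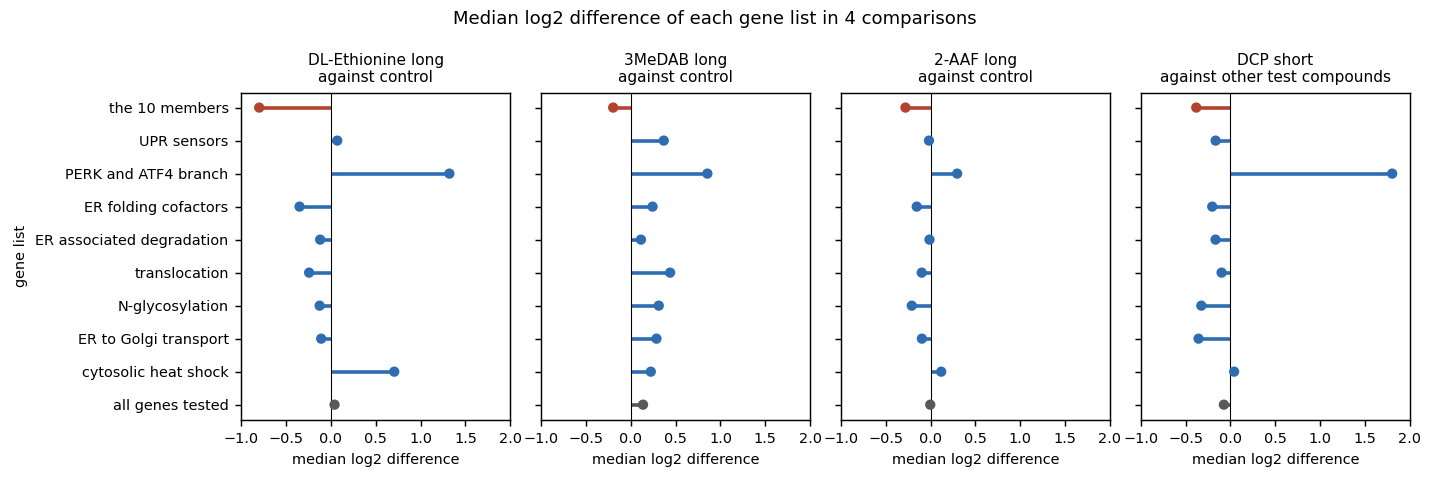
Median log2 difference of the 10 members, of 8 other gene lists and of all genes tested in 4 comparisons (horizontal axis, log2 difference). In DL-Ethionine long and DCP short the members' medians lie at -0.80 and -0.38 and those of the PERK and ATF4 branch at 1.32 and 1.80.

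In 2-AAF long 3 members were lower, Xbp1, Pdia4 and Calr, where 16.5% of all genes tested were called higher and 16.6% lower. Xbp1 read 11.58, 11.31 and 11.63 against 12.27, 12.38 and 12.37 in the controls, a fall of 0.83 ± 0.17 (limma adjusted p = 0.000452). Pdia4 read 11.29, 10.97 and 11.20 against 11.69, 11.64 and 11.77, and fell by 0.55 ± 0.11. For both genes the groups did not overlap. Calr fell by 0.28 ± 0.10 (limma adjusted p = 0.0377), but its replicate 1 lay at 11.39, above the controls, and replicates 2 and 3 at 11.02 and 10.78. The Calr call was lost without any of the rats of either group except 2-AAF long replicate 1 (up to 0.339) and in a fit of the genotoxic set alone (0.0907). Dnajb9 stood at -0.45 ± 0.20 and passed without 2-AAF long replicate 1, at -0.56 (limma adjusted p = 0.0448). Trib3, a pseudokinase induced by ATF4, rose by 1.34, Atf3 by 1.69 and Ddit3 by 0.80, and the folding cofactors divided into 2 higher and 7 lower of 28. Macrophage markers were lower in 2-AAF long, 5 of 8, with mean levels per rat of 9.28 to 9.72 against 9.95 to 10.18 in the controls. Leukocyte markers were lower in 4 of 7 (6.56 to 6.92 against 7.23 to 7.36) and hepatocyte markers in 4 of 9 (13.63 to 13.71 against 13.82 to 13.87). Their part in the members' falls was not tested.

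2-AAF short changed Xbp1 alone among the members, where 4.41% of all genes tested were called higher and 4.4% lower. It fell by 0.59 ± 0.17 (limma adjusted p = 0.0271), with rats at 11.77, 11.79 and 11.68 below every control rat. The call was lost without 2-AAF short replicate 1 or 3 or any control rat (up to 0.108). Herpud1 stood at 0.51 ± 0.22 and passed without control replicate 1, at 0.79 (limma adjusted p = 0.0268), and Manf passed without 2-AAF short replicate 1, at -0.48 (0.0438). The mean level of the cholangiocyte markers was 6.06 to 6.16 against 6.35 to 6.45 in the controls, and its part was not tested.

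DEN short was the one training group with higher Xbp1. Of the members 1 rose and 1 fell, where 7.4% of all genes tested were called higher and 10.7% lower. Both rats read Xbp1 at 12.87 and 12.90, above 12.27, 12.38 and 12.37 in the controls, a rise of 0.54 ± 0.19 (limma adjusted p = 0.0466). That call was lost with any 1 of the 5 rats left out (up to 0.212). Pdia4 fell by 0.44 ± 0.13, a call lost without DEN short replicate 3 or control replicate 3 (up to 0.257). Dnajb9 read 11.52 and 11.36 against 10.81, 10.95 and 10.72, a difference of 0.61 ± 0.22 that did not pass. It passed in a fit of the genotoxic set alone (limma adjusted p = 0.0134) and after quantile normalization (0.0348), and the Pdia4 call did not pass in the set's own fit (0.0642).

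Against 2-AAF short and 3MeDAB short together, a comparison added after the values were seen, 7.56% of all genes were called higher and 9.61% lower. Xbp1 was higher in DEN short by 1.05 ± 0.17 (limma adjusted p = 5.71e-05) with each rat left out in turn as well. Dnajb9 was higher by 0.72 ± 0.20 and Pdia4 lower, at -0.55 ± 0.12. The Dnajb9 call was lost without either DEN short rat (up to 0.152) and the Pdia4 call without DEN short replicate 3 (0.0894). Of the PERK and ATF4 branch 5 of 11 rose in DEN short against its control, with Atf3 at 5.34, Trib3 at 1.46 and Ppp1r15a, a phosphatase subunit that reverses the translation block, at 1.40. Chac1 fell by 1.38. The Gapdh 3' minus 5' value averaged 0.747 in DEN short, above every control rat. Macrophage markers had mean levels of 9.72 to 9.77 against 9.95 to 10.18 in the controls and endothelial markers 8.77 to 8.80 against 9.02 to 9.41. The part of these values was not tested.

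DEN long had 1 call among the members, where 10.5% of all genes tested were called higher and 6.54% lower. Xbp1 read 11.67, 11.75 and 11.69 against 12.27 to 12.38 in the controls and fell by 0.64 ± 0.17 (limma adjusted p = 0.00854), also with each rat left out. The other 9 members lay between -0.27 and 0.20. Macrophage markers rose in DEN long too, 5 of 8 (mean levels of 10.60 to 10.77 against 9.95 to 10.18), as did 4 of 7 leukocyte markers (7.74 to 8.05 against 7.23 to 7.36) and 4 of 10 stellate and fibroblast markers (8.25 to 8.42 against 7.66 to 7.75). Hepatocyte markers had mean levels of 13.74 to 13.77 against 13.82 to 13.87, with 1 of 9 lower. Their part in the fall of Xbp1 was not tested.

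3MeDAB short, 1,4-Dioxane long and Clofibrate long had no member called by limma, where 0.262%, 0.0937% and 0.0656% of all genes were called higher and 0.712%, 0.0749% and 0.0749% lower. At an unadjusted p under 0.05 they had 4, 1 and 2 members. The share of all genes at that unadjusted threshold is not given here, so these counts have no background beside them. In 3MeDAB short Pdia4 stood at 0.30 ± 0.11 and Xbp1 at -0.42 ± 0.17. In 1,4-Dioxane long all 10 members lay below 0, from Xbp1 at -0.58 ± 0.17 to Calr at -0.02. Their median was -0.13, and that of all genes was -0.01. All 10 differences use the same control rats, and the share of all genes below 0 is not given here. In Clofibrate long Dnajb9 stood at -0.75 ± 0.20, with no overlap between its rats and the controls, and Xbp1 at -0.58 ± 0.17. The Xbp1 differences of both long groups were set against a control whose replicate 1 was low (12.36 against 12.93 and 13.03). Without that rat both stood at -0.78 and passed (limma adjusted p = 0.0293 and 0.036).

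The short nongenotoxic groups all had Herpud1 above and Calr below their 1 shared control group, and both genes passed in 1,4-Dioxane short alone. High Herpud1 was not confined to this set. At the short duration it also stood above the genotoxic control with 2-AAF (0.51) and 3MeDAB (0.37). With DEN it lay below that control (-0.15), and no genotoxic short group passed. In the class comparison below, Herpud1 stood at -0.48 at the short duration and did not pass, whereas Calr passed. Herpud1 read 12.71, 12.61 and 12.40 in 1,4-Dioxane short, 12.55, 12.47 and 12.34 in Clofibrate short, and 12.60, 12.63 and 12.79 in DL-Ethionine short, all above the highest control rat at 12.08. It rose by 0.73 ± 0.22 in 1,4-Dioxane short and by 0.83 ± 0.22 in DL-Ethionine short, and stood at 0.61 ± 0.22 in Clofibrate short, where it did not pass. Neither rise kept its call with each rat left out: 1,4-Dioxane short lost it without any of its own rats or control replicate 2 or 3 (up to 0.162), and DL-Ethionine short without its replicate 2 or 3 or control replicate 2 or 3 (up to 0.132). Of all genes 1.88% were called higher and 3.86% lower in 1,4-Dioxane short, 1.59% and 1.41% in Clofibrate short, and 2.19% and 3.19% in DL-Ethionine short. The Gapdh 3' minus 5' value ran from 0.377 to 0.496 in 1,4-Dioxane short and from 0.503 to 0.908 in the controls, with no overlap. In 1,4-Dioxane short the mean level of leukocyte markers was 6.78 to 6.97 against 6.98 to 7.22 and that of cholangiocyte markers 6.46 to 6.54 against 6.01 to 6.34. In Clofibrate short that of macrophage markers was 9.98 to 10.10 against 9.44 to 9.75. The part of these values was not tested.

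Calr fell by 0.40 ± 0.10 in 1,4-Dioxane short and by 0.39 ± 0.10 in Clofibrate short, with no overlap with the controls in either. In DL-Ethionine short it stood at -0.27 ± 0.10. The 1,4-Dioxane call was lost without its replicate 2 or control replicate 3 (limma adjusted p up to 0.15), and the Clofibrate call without its replicate 2 or 3 or control replicate 2 or 3 (up to 0.234). Sdf2l1 lay below every control rat in all 3 short groups, at -0.58, -0.54 and -0.60, with SE 0.19, and passed in none. In a fit of the nongenotoxic set alone Sdf2l1 passed in all 3 (limma adjusted p = 0.0106, 0.0251 and 0.0129). Xbp1 fell in 1,4-Dioxane short by 0.58 ± 0.17, but its rats read 11.75, 12.84 and 11.97 and overlapped the controls. That call was lost without 1,4-Dioxane short replicate 1 or 3 or control replicate 2 or 3 (up to 0.303). Without control replicate 1, whose signals were low for several members, Clofibrate short had 5 lower members in place of 1. The added ones were Xbp1 at -0.71, Hyou1 at -0.60, Manf at -0.56 and Hspa5 at -0.40. Xbp1 then also passed in DL-Ethionine short, at -0.59 (limma adjusted p = 0.0471).

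Across the 12 training groups Xbp1 and Manf lay below their control in 11 each, as did 6.01% of the 10675 genes in 11 or 12. The 2 control groups are shared among the 12 comparisons. Xbp1 was called in 7, with 6 lower and 1 higher. Calr and Pdia4 were called lower in 4 groups each, Herpud1 lower in 2 and higher in 2, and Hyou1 and Dnajb9 lower in 1 each. Over the 45 pairs, Pearson's r of the 12 differences ran from -0.40 to 0.97 with a median of 0.34, and 40 pairs lay above 0. DL-Ethionine long enters every pair, and the differences of a set share its control, so r is given as a description only. Over the 8 test group means 29 of the 45 pairs lay above 0, with r from -0.84 to 0.99 and a median of 0.46.

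Duration was tested within each compound without a control, since the controls have no time of their own. Effects of sampling time or dosing shared by all compounds therefore cannot be told apart from effects of a compound. DL-Ethionine changed most: 8 of 10 members were lower in the long than in the short group, with 21.3% of all genes called lower and 31.3% higher. Herpud1 was highest in the short group and lowest in the long one, a difference of -2.12 ± 0.22. Sdf2l1 differed by -1.22 ± 0.19, Dnajb9 by -1.12 ± 0.20 and Calr by -1.01 ± 0.10. Hspa5 and Manf both stood at 0.02.

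In 3MeDAB 41% of all genes were called higher and 19.1% lower in the long group. Herpud1 was lower in the long group, at -1.17 ± 0.22, Pdia4 at -0.82 ± 0.11, Sdf2l1 at -0.76 ± 0.19 and Calr at -0.39 ± 0.10, and Manf was higher by 0.64 ± 0.14. In 2-AAF, with 18.8% called higher and 18% lower, Pdia4 stood at -0.48 ± 0.11 and Calr at -0.35 ± 0.10, both called lower. The 2-AAF call of Calr was lost without long replicate 3 (limma adjusted p = 0.111). In DEN, with 18.9% called higher and 11.9% lower, Xbp1 fell from 12.87 and 12.90 to between 11.67 and 11.75, a difference of -1.18 ± 0.19. Dnajb9 was lower too, at -0.67 ± 0.22, a call lost without DEN long replicate 3 or either DEN short rat (up to 0.147).

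1,4-Dioxane and Clofibrate showed the same pair of calls. Herpud1 was lower in the long group, at -0.83 ± 0.22 and -0.94 ± 0.22, and Calr was higher by 0.38 ± 0.10 and 0.43 ± 0.10, with 2.3% and 2.17% of all genes called lower and 3.19% and 1.38% higher. In 1,4-Dioxane the Herpud1 call was lost without long replicate 2 or short replicate 1 or 2 (limma adjusted p up to 0.163), and the Calr call without long replicate 2 or 3 or short replicate 1 or 2 (up to 0.135). In Clofibrate the Herpud1 call was lost without long replicate 3 or short replicate 2 (up to 0.0705), and the Calr call without long or short replicate 2 (up to 0.142).

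Over all 10 compounds, test set included, Dnajb9 was lower in the long than in the short group in 10 of 10, as were 0.731% of the 9981 genes tested in both fits. The 10 differences ran from -1.12 to -0.14 with a median of -0.39, and 3 passed, in DEN, DL-Ethionine and DCP. Without controls of matched time, a shared effect of sampling time or dosing cannot be told apart from the compounds. Xbp1 was lower in 8 of 10 and called in 3, DEN, DL-Ethionine and ME. Herpud1 was lower in 7 of 10 and called in 4, all of them training compounds. In the other direction, Pdia4, Sdf2l1 and Hyou1 were higher in 7 of 10, and Hspa5, Hsp90b1, Calr and Manf in 6. The share of all genes at 8, 7 or 6 of 10 is not given here. Hspa5 was called in none of the 10 by limma and ranged from -0.10 to 0.18.

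**Figure D4:**
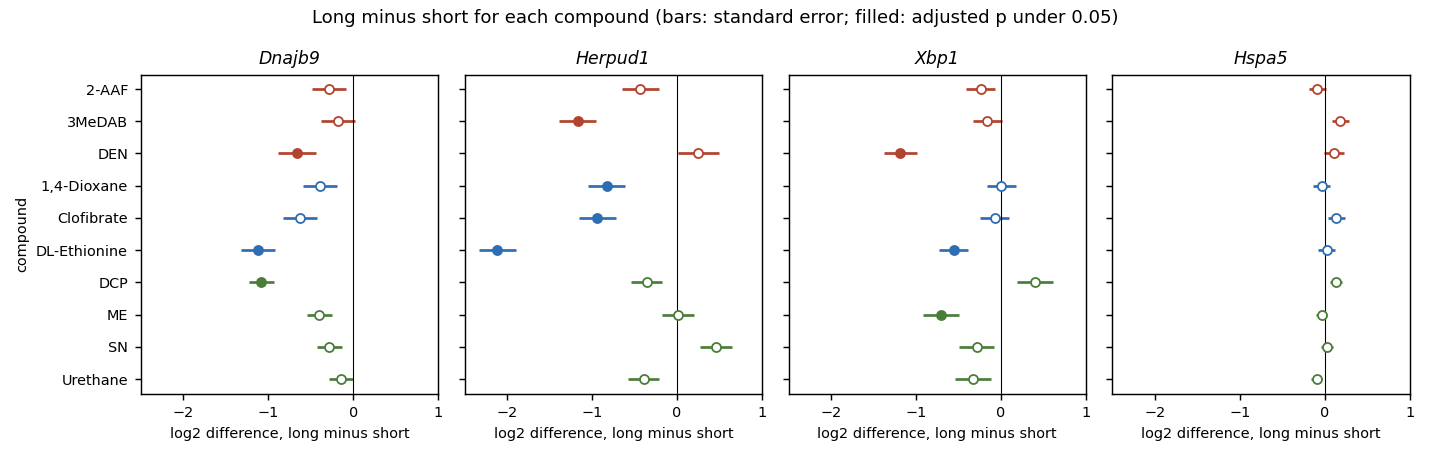
Difference between the long and the short group of each of 10 compounds for 4 members (horizontal axis, log2 difference, bars give the SE, filled points passed at an adjusted p under 0.05). Dnajb9 lies below 0 in all 10 compounds, down to -1.12, and Hspa5 stays between -0.10 and 0.18.

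The class comparison asked whether genotoxic and nongenotoxic compounds moved the members differently, taking each compound's difference from the control of its set, averaged over the 3 compounds of a class, and subtracting the nongenotoxic from the genotoxic average. At the short duration Calr was higher with the genotoxic compounds by 0.41 ± 0.12 (limma adjusted p = 0.0389), where 2.44% of all genes were called higher and 3.13% lower. At the long duration Hsp90b1 was higher by 0.34 ± 0.11 (limma adjusted p = 0.046), where 8.06% were called higher and 4.05% lower. The other members did not pass at either duration. The SE and p come from the spread between rats and do not measure variation among the 3 compounds of a class. Class also coincides with set, so it cannot be told apart from the set's own control group and normalization. The Calr call was lost in 9 of 23 fits that left out 1 rat (limma adjusted p up to 0.184): replicate 2 of 1,4-Dioxane short or of Clofibrate short, either DEN short rat, any genotoxic control rat, or nongenotoxic control replicate 2 or 3. The Hsp90b1 call was lost in 16 of 24 (up to 0.149): any long rat of 1,4-Dioxane or Clofibrate, replicate 2 or 3 of 3MeDAB long, replicate 1 or 2 of DEN long or DL-Ethionine long, genotoxic control replicate 1 or 2, or nongenotoxic control replicate 2 or 3. Hsp90b1 fell in DL-Ethionine long and stood at -0.07 and 0.02 in 1,4-Dioxane long and Clofibrate long.

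In the test set, which has no control, each compound was compared with the other 3 at the same duration, so a low value in one compound raises the others' differences. DCP short stood apart. Of the members 7 were lower and 2 higher, where 28.4% of all genes were called lower and 13.5% higher, and the members' median was -0.38 against -0.07 for all genes. Manf read 10.91, 10.84 and 10.69 in DCP short and between 11.40 and 11.74 in the other short rats, a difference of -0.76 ± 0.08 (limma adjusted p = 3.52e-07). Xbp1 was lower, at -0.90 ± 0.17, Hyou1 at -0.71 ± 0.11, Pdia4 at -0.55 ± 0.07, Hsp90b1 at -0.43 ± 0.06 and Calr at -0.34 ± 0.06.

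Hspa5 was lower here as well. It read 12.47, 12.46 and 12.38 in DCP short and 12.53 to 12.71 in the other short rats, a difference of -0.19 ± 0.05 (limma adjusted p = 0.00861) that lost its call without DCP short replicate 3 (0.0588). Dnajb9 went the other way. It read 11.30, 11.26 and 11.29 in DCP short, and the other short rats lay between 10.18 and 11.06, a difference of 0.68 ± 0.12. Herpud1 was higher by 0.43 ± 0.15, a call lost without DCP short replicate 1 or 2 (up to 0.115). Sdf2l1 stood at -0.00.

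The PERK and ATF4 branch again stood opposite to the members in DCP short, with 10 of 11 genes higher and a median of 1.80. Atf3 was higher by 5.97, Chac1 by 3.96 and Ddit3 by 2.78, and the sensor Eif2ak3 by 1.59. Of 21 ER to Golgi genes 18 were lower, of 29 folding cofactors 17, of 16 N-glycosylation genes 11 and of 19 degradation genes 10. Examples are Ero1a at -0.77, Sec31a, a vesicle coat protein, at -0.69, and Creld2, a folding factor, at -0.64. Of 9 hepatocyte markers 4 were lower, with mean levels of 13.56 to 13.65 against 13.68 to 13.75 in the other short rats, and their part was not tested. None of the 8 macrophage markers was called by limma, and their median was -0.09.

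**Figure D5:**
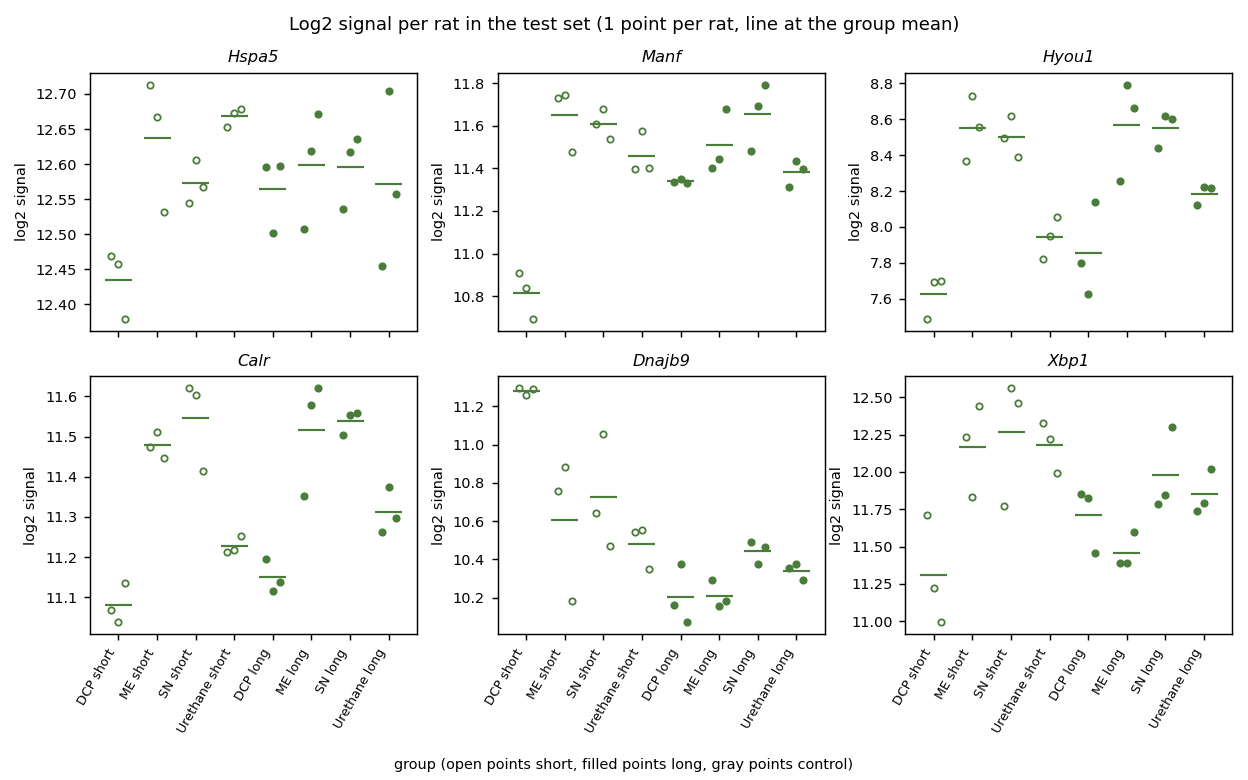
Log2 signal of 6 members in each rat of the test set, by group (1 point per rat, line at the group mean). DCP short lies below every other short rat for Manf, at 10.69 to 10.91, and for Hspa5, and above every other rat for Dnajb9, at 11.26 to 11.30.

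Most of this was smaller in DCP long. Compared with DCP short, Dnajb9 was lower, at -1.08 ± 0.15, and Manf (0.53 ± 0.09), Hsp90b1 (0.40 ± 0.07) and Pdia4 (0.37 ± 0.09) were higher, with 25.7% of all genes called higher and 14.2% lower. Against the other long compounds, with 17.7% called higher and 19.9% lower, Hyou1 was lower, at -0.58 ± 0.11, Calr at -0.31 ± 0.06 and Pdia4 at -0.22 ± 0.07. The Pdia4 call was lost without DCP long replicate 2 (limma adjusted p = 0.162). In DCP long the mean level of macrophage markers was 9.14 to 9.27 against 8.03 to 9.08 in the other long rats and that of endothelial markers 8.62 to 8.73 against 7.89 to 8.38, and their part was not tested. Between DCP long and short 16 of 21 ER to Golgi genes, 13 of 29 folding cofactors and 11 of 16 N-glycosylation genes were higher, and 8 of 11 genes of the PERK and ATF4 branch were lower, Atf3 at -6.44.

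ME short had 6 higher members and SN short 3, with 4.74% and 10.8% of all genes called higher and 4.48% and 3.44% lower, in comparisons that both contain DCP short. In ME short Hyou1 was higher by 0.53 ± 0.11 and Manf by 0.36 ± 0.08, with each rat left out too. Pdia4 (0.26 ± 0.07), Sdf2l1 (0.25 ± 0.07), Hsp90b1 (0.23 ± 0.06) and Calr (0.19 ± 0.06) were also higher. Pdia4 and Hsp90b1 lost the call without ME short replicate 1 or 2, Sdf2l1 without any ME short rat, DCP short replicate 2 or 3, SN short replicate 2 or Urethane short replicate 2, and Calr without any ME short rat, DCP short or Urethane short replicate 1 or 2 or SN short replicate 3 (limma adjusted p up to 0.116). In SN short Hyou1 was higher by 0.46 ± 0.11, Manf by 0.30 ± 0.08 and Calr by 0.28 ± 0.06. The Hyou1 call was lost without SN short replicate 2 (0.0694) and when both Hyou1 probe sets were averaged (0.155), and the Manf call without SN short replicate 1 or 2 (up to 0.0854). The Gapdh 3' minus 5' value ran from 0.433 to 0.527 in ME short, below every other short test rat, of which the lowest stood at 0.546. In SN short the mean level of cholangiocyte markers was 5.54 to 5.73 against 5.15 to 5.44 in the other short rats. The part of these values was not tested.

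The other test comparisons held few calls. SN long had 1, Calr at 0.21 ± 0.06, where 3.24% of all genes were called higher and 1.96% lower, and it was lost without any SN long rat (limma adjusted p up to 0.143). ME had 1 call between durations, Xbp1 lower in the long group, at -0.71 ± 0.21, where 8.2% were called lower and 8.75% higher, and it was lost without ME long replicate 1 or 2 or ME short replicate 1 or 3 (up to 0.0913). Urethane short, Urethane long and ME long had no member called by limma against the other compounds, where 3.52%, 6.08% and 1.62% of all genes were called higher and 4.06%, 7.78% and 1.35% lower, and had 5, 1 and 5 members at an unadjusted p under 0.05. SN and Urethane had none between durations, where 1.74% and 7.8% were called higher and 3.26% and 5.9% lower, and had 2 and 1 at an unadjusted p under 0.05. These percentages are of adjusted calls, and the share of all genes at the unadjusted threshold is not given here.

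Over the 12 training differences, 8 other genes followed the mean of the members most closely by Pearson's r. They were Slc17a5 (0.952), Fkbp2 (0.952), Sync (0.951), Itih4 (0.946), C9 (0.942), Ltbp3 (0.939), Ocel1 (0.937) and Kdelr1 (0.935). Of these, Fkbp2 is a prolyl isomerase of the ER, Kdelr1 a retrieval receptor for ER proteins, and C9 and Itih4 are proteins the liver secretes. DL-Ethionine long carried much of this likeness: over the other 11 groups r ran from 0.678 for C9 to 0.810 for Sync. Over the 8 test group means, which the choice did not use, r ran from -0.786 for Sync to 0.821 for C9, and Slc17a5, a lysosomal transporter, stood at 0.794. Over the 12 training differences Ltbp3 itself lay only between -0.16 and 0.12. Each member's r with the mean of the other members ran from 0.032 for Manf and 0.163 for Hspa5 to 0.869 for Hsp90b1. Without DL-Ethionine long it ran from -0.180 for Manf to 0.422 for Hsp90b1. The 8 genes were chosen for a high r and the members were not, so their ranges cannot be compared. Over the 12 training differences the median r of all genes with the members' mean was -0.075. Values of 1 set share an array normalization, and r is given as a description.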

How the data were processed

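Expression in liver was measured in 65 rats, 1 Affymetrix array each. The authors deposited a table of 31099 probe sets in log2 units, made with RMA, per the series' design text and the submitters' processing notes. RMA subtracts background, equalises the arrays' distributions and combines the probes of each probe set. Its version is not given in the sources used here. The lowest values of the arrays did not overlap between sets (3.33 to 3.41 genotoxic, 3.23 to 3.30 nongenotoxic, 2.28 to 2.40 test), hence no comparison crosses sets. Arrays have no read depth, so their number limits the precision. No 2 arrays held identical values (highest r 0.998).

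Groups came from the titles. The 10 genes, the other gene lists and the tests were chosen with earlier results of these data known. Genes were named from probe sets with 1 symbol in the platform annotation (20826 probe sets). 436 had several symbols and 9837 none. The 57 control probe sets were left out of the tests. Each gene took its probe set with the highest mean, and was tested if above the median (log2 6.21 training, 5.64 test) in at least 2 arrays. limma 3.58.1 in R 4.3.3 was fitted with 1 mean per group and plain eBayes to the 41 training arrays (10675 genes, 27 residual degrees of freedom) and the 24 test arrays (10245 genes, 16). Tests were two-sided and adjusted by Benjamini-Hochberg within each of 32 planned comparisons and 3 added later. All 10 members are named throughout, from every other list at most the 3 largest called differences in each direction, and the 8 genes most like the members' mean. Replicate numbers did not pair rats: the median correlation of same-numbered deviations was 0.0068 in the genotoxic, -0.00046 in the nongenotoxic and -0.0057 in the test set.

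Alternatives were no filter, the mean of all probe sets, quantile normalization of all 65 arrays, the set's own arrays, a replicate block and each rat left out. On simulated data for 2-AAF long over 10675 genes, the fit found 96% of changes of log2 1 and 100% of changes of log2 2, with 10 false calls. For DCP long over 10245 genes it found 94% and 100%, with 11. Each simulation changed 100 genes. No change under log2 1 was simulated, so these rates do not cover the smaller differences of most members. Figures used Python with matplotlib. Sequences are from RefSeq, build GRCr8. The retrieval signals of the proteins were not analysed here.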

Additional observations from a re-analysis of the deposited data

Results flagged for a closer look

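The differences below were marked because 2 groups' effects against the same control, or the 2 classes' mean effects, differed by a direct test (limma, Benjamini-Hochberg adjusted over all genes). No explanation was weighed.

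Between the long and short groups of DL-Ethionine, 8 members differed: Herpud1 by -2.12, Sdf2l1 by -1.22, Dnajb9 by -1.12, Calr by -1.01, Hyou1 by -0.65, Pdia4 by -0.64, Hsp90b1 by -0.62 and Xbp1 by -0.56. Between those of 3MeDAB, Herpud1 differed by -1.17, Pdia4 by -0.82, Sdf2l1 by -0.76 and Calr by -0.39, and Manf differed in the other direction by 0.64. In 2-AAF the long group was lower for Pdia4 (-0.48) and Calr (-0.35). In DEN it was lower for Xbp1 (-1.18) and Dnajb9 (-0.67).

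In 1,4-Dioxane and in Clofibrate Herpud1 was lower in the long group (-0.83 and -0.94) and Calr higher (0.38 and 0.43). Between the classes, which coincide with the training sets, Calr was higher with genotoxic compounds at the short duration (0.41) and Hsp90b1 at the long duration (0.34). Which of these calls rest on single rats is given beside each result above.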

How the results depend on the processing

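No member call changed direction under any alternative run, and the 8 lower members of DL-Ethionine long held in each. With no filter on low values the higher calls of DEN short, the long class difference and SN long went to 0. After quantile normalization of all arrays, the higher count became 2 in DEN short, 0 in 1,4-Dioxane short, 0 in 1,4-Dioxane long minus short, 2 in the long class difference, 0 in SN long and 1 in DL-Ethionine long against the other compounds of its set, and the lower count of Clofibrate short became 2. In fits of the set's own arrays, DEN short had 2 higher and 0 lower, Clofibrate short 1 higher and 3 lower, DL-Ethionine short 1 lower, 3MeDAB long against the other compounds of its set 1 lower, and the long minus short comparisons of 1,4-Dioxane and Clofibrate 2 higher each. Averaging probe sets moved no count by over 1.5 times. The replicate numbers did not pair rats. With the replicate block the lower count became 1 in DL-Ethionine short, 2 in ME long minus short and 1 in Urethane short, and the higher count 1 in ME long and 2 in SN long.

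With 1 rat left out, counts of members ranged as follows. Against control, lower calls ran from 0 to 1 in 2-AAF short, DEN short, 1,4-Dioxane long, Clofibrate long and DL-Ethionine short, from 0 to 2 in 1,4-Dioxane short and from 0 to 5 in Clofibrate short. Higher calls ran from 0 to 1 in 2-AAF short, 1,4-Dioxane short and DL-Ethionine short and from 1 to 3 in 3MeDAB long, and were 0 throughout in DEN short. Between durations, both counts of 1,4-Dioxane and of Clofibrate and the lower count of ME ran from 0 to 1, the lower count of 2-AAF from 1 to 4, that of DEN from 1 to 2 and the higher count of 3MeDAB from 1 to 2. The class difference ran from 0 to 1 at the short and from 0 to 2 at the long duration. Against the other compounds of its set, 3MeDAB long ran from 1 to 3 higher and 1 to 2 lower, and DEN short from 1 to 2 higher and 0 to 3 lower. In the test set higher counts ran from 1 to 2 in DCP short, 2 to 6 in ME short, 1 to 3 in SN short, and 0 to 2 in ME long and SN long, and lower counts from 0 to 1 in SN short, Urethane short and Urethane long.

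Besides the calls gained with 1 rat out that are given beside their results above, these were gained. Without 2-AAF long replicate 1, Herpud1 (-0.65) and Hsp90b1 (-0.25) were lower in 2-AAF long minus short, and without replicate 2 Sdf2l1 was (-0.53). Hspa5 was higher in 3MeDAB long minus short without 3MeDAB long replicate 1 (0.30), and Hsp90b1 in 3MeDAB long against its set without 2-AAF long replicate 1 (0.20). In DEN short against its set, Herpud1 was lower without DEN short replicate 2 (-0.99) or 2-AAF short replicate 2 (-0.65), and Sdf2l1 without DEN short replicate 2 (-0.76). Calr was higher in the long class difference without 2-AAF long replicate 3 (0.32). In ME long, Hyou1 (0.53) and Calr (0.27) were higher without its replicate 1, and Hyou1 without DCP long replicate 3 (0.42). In SN long, Hyou1 was higher without DCP long replicate 3 (0.40) or ME long replicate 2 (0.39), and Manf without ME long replicate 3 (0.27). Dnajb9 was lower in Urethane short without ME short replicate 3 (-0.46) or SN short replicate 3 (-0.43), and in ME long minus short without ME short replicate 3 (-0.61). Herpud1 was lower in SN short without ME short replicate 3 (-0.47), and Xbp1 higher without SN short replicate 1 (0.63). Xbp1 was higher in DCP long minus short without DCP short replicate 1 (0.60). Manf was lower in DCP long without SN long replicate 1 (-0.20), and Sdf2l1 in Urethane long without DCP long replicate 2 (-0.23). The number of arrays limits what can be called.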
